A study of Mus musculus with 16 samples.

Results

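The bile acid synthesis and transport genes described here are 10 rows of the gene count table, those whose Ensembl identifiers carry the symbols Cyp7a1, Cyp8b1, Cyp27a1, Cyp7b1, Baat, Abcb11, Slc10a1, Slco1a1, Nr0b2 and Nr1h4, out of 46078 genes in all. They were chosen by function, and all 10 passed the filter on low counts that left 15075 genes for testing. RNA-seq of polyadenylated liver RNA asked how the liver transcriptome answers to diet and to feeding or fasting. Male C57BL6/J mice (written C56B6/J in the sample labels), 8 weeks old when the diets began, ate for 16 weeks either the control diet (CD) or an obesogenic diet high in fat (HFD, 60% of calories from fat). Livers were then taken from mice with free access to food (CD fed and HFD fed) or after a 16 h fast (CD fast and HFD fast), with 4 libraries per group and 16 in all. No group carried a transgene, a deletion or a drug treatment according to the labels. The HFD is one obesogenic diet at 1 duration, the fast was sampled at 1 time, and the samples are whole liver, in which fewer cells of a type and less RNA per cell cannot be told apart.

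Bile acids are made from cholesterol in hepatocytes and are the main route by which cholesterol leaves the body. In the classic pathway CYP7A1 adds the hydroxyl group that commits cholesterol to bile acids and CYP8B1 directs the product to cholic acid. In the alternative pathway CYP27A1 oxidises the side chain and CYP7B1 acts on the oxysterols that result. BAAT joins bile acids to taurine or glycine, ABCB11 (the bile salt export pump) exports them into bile, and SLC10A1 and SLCO1A1 take them up again from portal blood. The bile acid receptor FXR, encoded by Nr1h4, induces Abcb11 and Nr0b2, and NR0B2 (SHP) is a corepressor that acts on Cyp7a1 and Cyp8b1.

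The promoter sequences of 3 genes are shown because these are the genes whose transcripts changed with fasting in both diets. Each run is the 250 bases before the RefSeq start on GRCm38.p6, 5′ to 3′ on the strand of the gene: Abcb11 at chr2:69342617-69342866 (minus strand), Cyp8b1 at chr9:121916306-121916555 (minus strand) and Slco1a1 at chr6:141946963-141947212 (minus strand). Capitals mark the letters that matched a motif searched on both strands.
Abcb11: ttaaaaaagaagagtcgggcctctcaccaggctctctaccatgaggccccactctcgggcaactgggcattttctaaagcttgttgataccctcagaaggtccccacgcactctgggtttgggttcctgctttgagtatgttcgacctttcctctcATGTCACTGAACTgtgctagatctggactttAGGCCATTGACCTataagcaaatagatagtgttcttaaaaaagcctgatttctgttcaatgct
Cyp8b1: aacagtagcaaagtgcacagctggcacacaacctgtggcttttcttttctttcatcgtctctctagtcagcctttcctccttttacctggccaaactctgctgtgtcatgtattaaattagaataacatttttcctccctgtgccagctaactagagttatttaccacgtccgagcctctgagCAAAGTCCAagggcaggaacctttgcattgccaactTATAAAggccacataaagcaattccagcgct
Slco1a1: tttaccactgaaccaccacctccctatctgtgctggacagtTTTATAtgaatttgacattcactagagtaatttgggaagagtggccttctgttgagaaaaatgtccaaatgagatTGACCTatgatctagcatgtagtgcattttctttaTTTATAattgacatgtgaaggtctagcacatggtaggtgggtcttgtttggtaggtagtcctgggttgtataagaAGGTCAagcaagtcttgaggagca

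Windows of 250 bases before to 50 after the start were found in the RefSeq table for 7 of the 10 genes, in 8 windows, since Slc10a1 has 2. The FXR type of element is an inverted repeat of the hexamer AGGTCA with 1 base between the copies (IR1), and up to 2 mismatches over its 12 hexamer bases were allowed. Among the windows of these genes the IR1 was matched only in Abcb11, at -63 to -51 with 1 mismatch and at -94 to -82 with 2, and 1.14% of 32851 windows in the table held such a match. The TGACCT of the nearer match is itself AGGTCA on the other strand, so these matches overlap. AGGTCA alone, which 16.3% of windows held, was also matched in Slco1a1 (at -134 to -129 and -24 to -19), Nr1h4 (-214 to -209) and the second window of Slc10a1 (-87 to -82). The HNF4 motif CAAAGTCCA was matched in Cyp8b1 at -67 to -59, against 0.475% of windows. TATAAA, held by 13.6% of windows, was matched in Cyp8b1 at -31 to -26 and in Nr0b2 at -28 to -23, and on the other strand in Slco1a1 (2 matches) and in the first window of Slc10a1. GTTAAT, the core of an HNF1 site (7.1% of windows), was matched in Nr1h4 at -40 to -35. The longer receptor motif CAAGGTCA (1.56%), the forkhead motif TGTTTAC (3.65%) and the D-box TTATGTAA (0.938%) were matched in none of the 8 windows, and Cyp27a1 held no match. These matches describe letters in a window and are not evidence of binding.

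Library totals ranged from 41364448 to 57583153 counts, at which 3 counts, the detection floor, equal 0.0536 to 0.0767 CPM (counts relative to the library total, scaled by TMM, the trimmed mean of M-values). The 10 genes together took 0.221% to 0.411% of the counts of a library. Hepatocyte markers dominated every library, with a summed level of 74010 to 142904 CPM over 8 genes, against 45.2 to 85.3 CPM over 10 cholangiocyte genes. Within the HFD groups, the libraries labelled replicate 4 stood apart. HFD fed replicate 4 was the lowest of its group for 8 of the 10 genes and the highest for 1, and HFD fast replicate 4 was the lowest for 7 and the highest for 2. Their deviations from the group means correlated at r = 0.662 over genes, the highest of all pairs between groups, and their summed pericentral markers (12 genes) were 6152 and 9256 CPM, the lowest of their groups. Where a call of a named gene in a comparison with HFD libraries was lost without both of them, the value without them is given. With total counts in place of TMM the share of higher calls among all called genes moved from 54.4% to 44.3% for fasting under CD, from 54% to 67.6% for fasting under HFD, from 43.8% to 68.8% for HFD among fed mice, from 39.6% to 88.1% for HFD among fasted mice and from 47.4% to 69.6% for the interaction. Upper quartile scaling gave 52.6% for HFD among fed mice and 51.2% for HFD among fasted mice. The median change of all genes with HFD among fasted mice was 0.01 on the log2 scale with TMM and 0.17 with total counts.

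**Figure D1:**
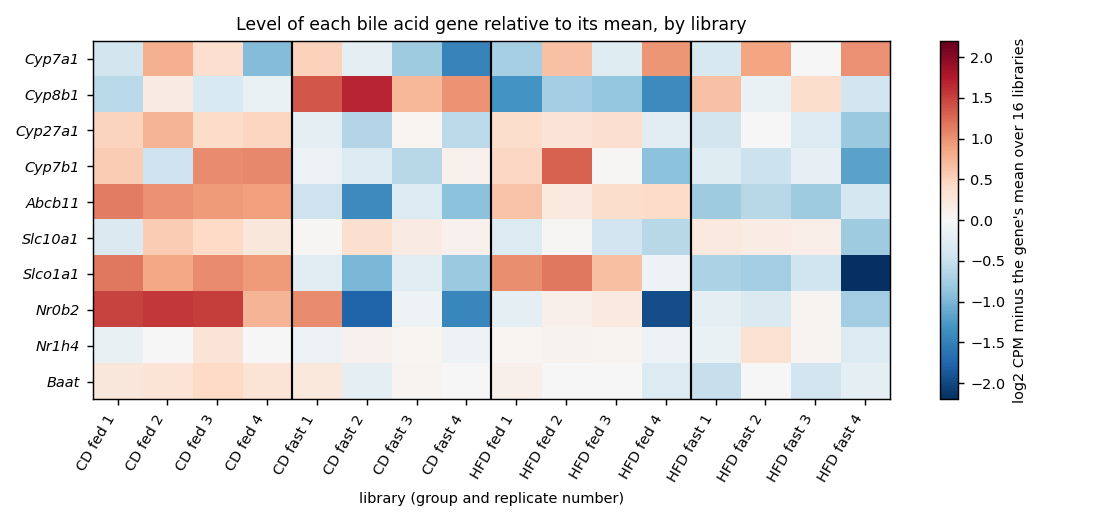
Level of each of the 10 genes (rows) in each of the 16 libraries (columns, in 4 groups separated by lines), as log2 CPM minus the mean of that gene over all libraries, with red above and blue below the mean. Abcb11 is red in all 8 fed libraries and blue in all 8 fasted ones, and HFD fed 4 and HFD fast 4 hold the lowest Slco1a1 and Cyp7b1 of their groups.

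To compare levels between genes, RPKM (CPM divided by exon length) were used. In CD fed livers Slc10a1 was the most abundant at 319 ± 77.5 RPKM (mean ± SD, n = 4), followed by Cyp27a1 at 274 ± 29.4, Cyp8b1 at 212 ± 48.3 and Abcb11 at 190 ± 12.6. Baat (143 ± 8.17), Cyp7b1 (99.3 ± 39.9), Slco1a1 (89.6 ± 8.51) and Nr1h4 (61.2 ± 8.01) lay lower, and Nr0b2 (39.3 ± 9.25) and Cyp7a1 (30.7 ± 15.5) were the least abundant. The ranges of mean ± SD of neighbours in this order overlapped except between Abcb11 and Baat, Slco1a1 and Nr1h4, and Nr1h4 and Nr0b2, and that of Cyp7b1 also overlapped Nr1h4, so the order within each stretch of overlapping genes is not resolved. The order differed in CD fast livers, where Cyp8b1 led at 574 ± 165 RPKM, Slc10a1 followed at 298 ± 28.8, and Abcb11 at 58.6 ± 18.7 was level with Nr1h4 at 58.8 ± 4.62. In HFD fed livers Cyp27a1 (219 ± 40.2) and Slc10a1 (215 ± 40.9) were highest and Nr0b2 (12.9 ± 6.22) was lowest. In HFD fast livers Cyp8b1 (275 ± 91.7) and Slc10a1 (264 ± 72.7) were highest and Nr0b2 (12.6 ± 2.85) was again lowest.

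**Figure D2:**
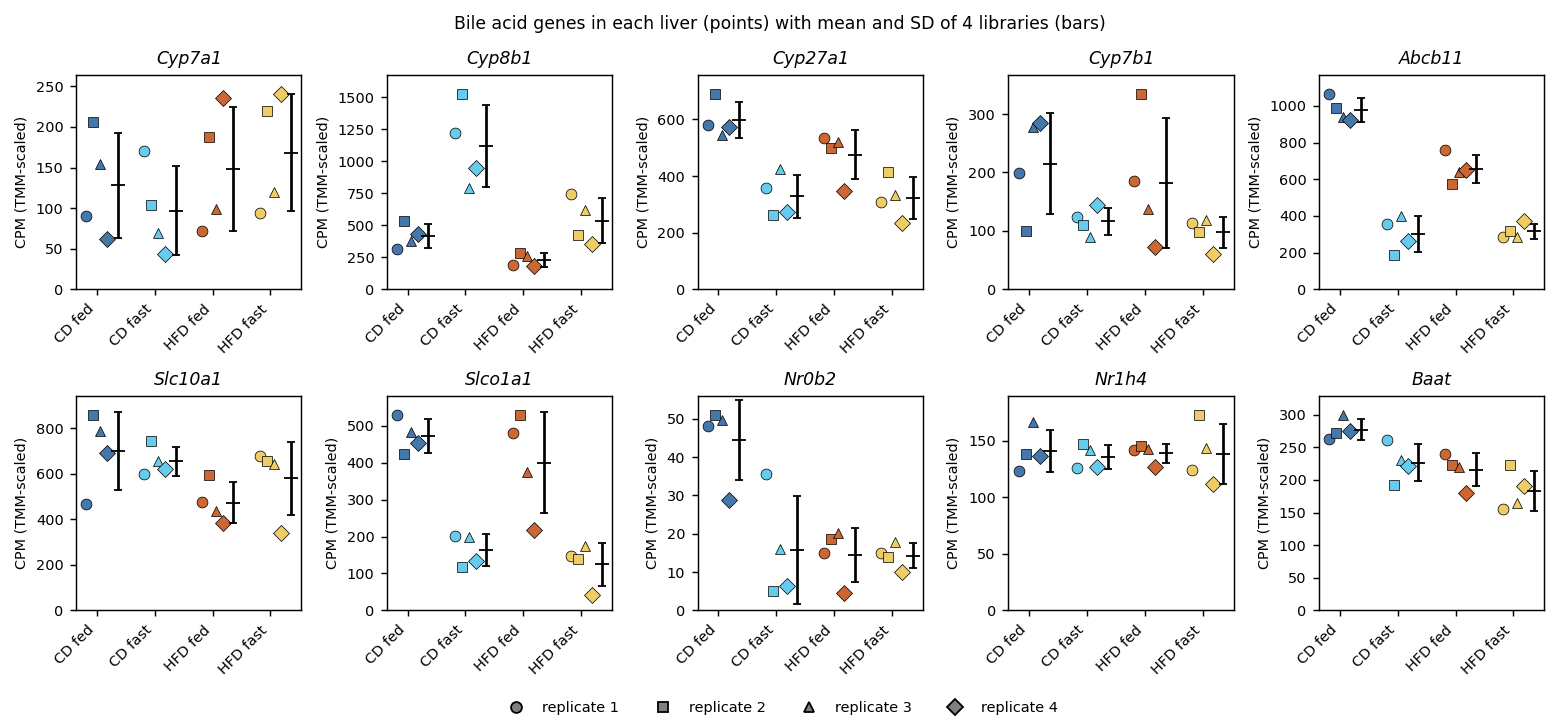
TMM-scaled CPM of each gene (vertical axis, from 0) in the 4 groups (horizontal axis), where each point is 1 library, its shape gives the replicate number, and the bars give the mean and SD of 4 libraries. The fed and fasted libraries do not overlap for Abcb11, Slco1a1 and Cyp8b1 on either diet, while the ranges of Cyp7a1 overlap between all 4 groups.

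With fasting on the control diet, Cyp8b1 transcripts rose 2.70-fold, while those of the export pump Abcb11 fell 3.24-fold, of the uptake carrier Slco1a1 2.90-fold, of the corepressor Nr0b2 2.82-fold and of Cyp27a1 1.81-fold. The Nr0b2 call was lost in 11 of the 16 fits without a library and when only the 2 groups were fitted (adjusted p = 0.0686). Cyp7a1, Slc10a1 and Nr1h4 passed no test. In all, 5 of the 10 genes changed at an adjusted p under 0.05 (edgeR's quasi-likelihood test, Benjamini-Hochberg over all genes), 1 higher and 4 lower. Of all tested genes 25.2% changed in this comparison, 13.7% higher and 11.5% lower. The libraries of the 2 groups did not overlap for 5 of the 10 genes, against 25.4% of all genes. The median change of the 10 genes was -0.63 on the log2 scale, against -0.01 for all genes.

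With fasting on the HFD, the same direction was found for Cyp8b1 (2.34-fold higher), Abcb11 (2.08-fold lower) and Slco1a1 (3.20-fold lower), and no other gene of the 10 passed. These 3 calls, 1 higher and 2 lower, compare with 8.86% of all genes called, 4.78% higher and 4.07% lower. The same 3 genes were those whose libraries did not overlap, against 16.7% of all genes. The median change of the 10 genes was -0.13 on the log2 scale, against 0.01 for all genes. The fasting comparisons of the diets share no library.

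**Figure D3:**
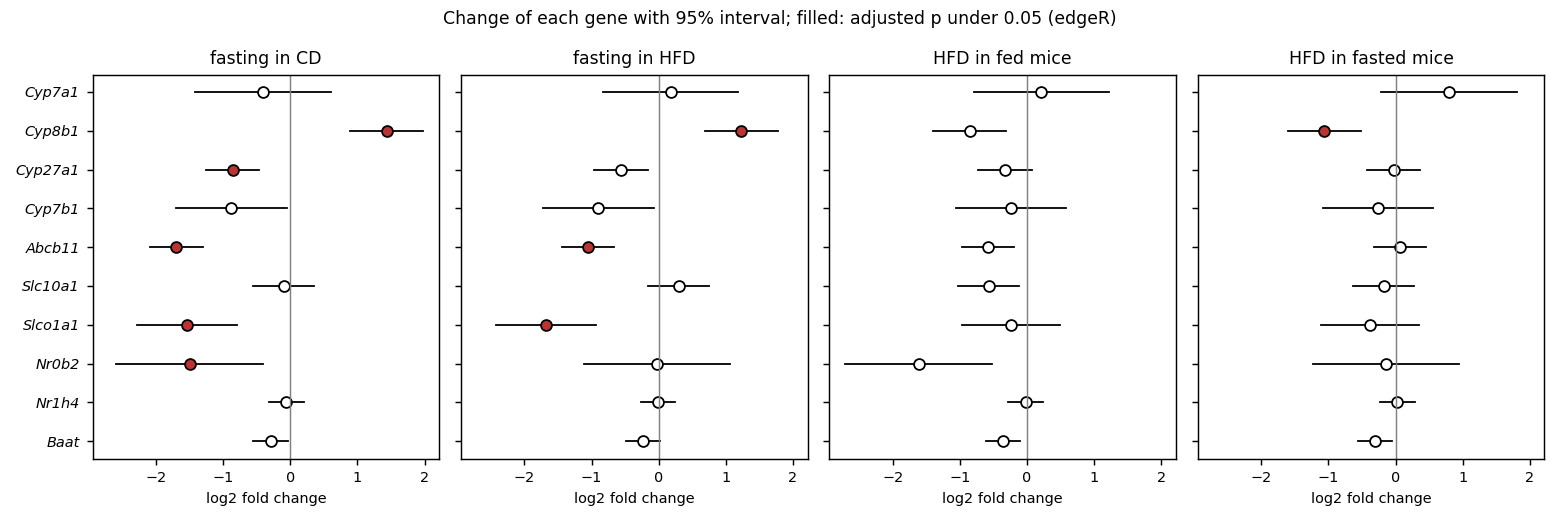
Log2 fold change (horizontal axis) of each gene for fasting under CD, fasting under HFD, HFD among fed mice and HFD among fasted mice, with the 95% interval of the edgeR fit over 16 libraries, where filled points have an adjusted p under 0.05. Filled points number 5, 3, 0 and 1 in the 4 panels, and the widest intervals are those of Cyp7a1 and Nr0b2.

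Cyp7a1 (chromosome 4, 6265612 to 6275633, minus strand, GRCm38, as are all gene positions here), the rate-limiting enzyme of the classic pathway, varied widely between mice of every group. Listed from replicate 1 to replicate 4, as for all genes here, its level was 89.9, 206, 154 and 62.0 CPM in CD fed livers and 170, 104, 69.9 and 43.2 CPM in CD fast livers. On the HFD it was 71.7, 187, 99.2 and 235 CPM in fed and 93.4, 219, 120 and 241 CPM in fasted livers. The 4 groups overlapped throughout, with a coefficient of variation of 43.0% to 56.6% within groups, and replicate 4 was the lowest library in both CD groups and the highest in both HFD groups. The change with fasting was -0.41 on the log2 scale in CD (95% interval -1.41 to 0.60) and 0.18 in HFD (-0.82 to 1.19), so that a fall of more than 2-fold under CD and a rise of more than 2-fold under HFD lie within the intervals. The largest estimated difference of Cyp7a1 was with HFD among fasted mice, 0.80 ± 0.48 (SE, adjusted p = 0.306), and without the HFD replicates 4 it was 0.58.

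Cyp8b1 (chromosome 9, 121914356 to 121916305, minus strand), the sterol 12α-hydroxylase that sets the share of cholic acid, was the one gene of the 10 that rose with fasting. It measured 314, 536, 375 and 431 CPM in CD fed livers and 1219, 1524, 792 and 946 CPM in CD fast livers. In HFD fed livers it measured 190, 284, 263 and 179 CPM, and in HFD fast livers 744, 427, 622 and 353 CPM. Every fasted library exceeded every fed library of the same diet, and every HFD library lay below every CD library of the same feeding state. The fasting change was 1.43 ± 0.26 on the log2 scale in CD (adjusted p = 0.00111) and 1.23 ± 0.26 in HFD (adjusted p = 0.00997), and the difference between these was -0.21 ± 0.36 (adjusted p = 0.781). Both fasting calls held without each library in turn and without both HFD replicates 4. The HFD change was -0.85 ± 0.25 in fed mice (adjusted p = 0.053) and -1.06 ± 0.26 in fasted mice (adjusted p = 0.0218). The call in fasted mice was lost without CD fast replicate 1 (adjusted p = 0.0517), CD fast replicate 2 (0.0632), HFD fast replicate 4 (0.067) or both HFD replicates 4 (-0.91, adjusted p = 0.0586), and when only the 2 groups were fitted (0.0754), while in fed mice 6 of the 10 alternative fits called Cyp8b1.

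Cyp27a1 (chromosome 1, 74713574 to 74737892, plus strand), the mitochondrial sterol 27-hydroxylase of the alternative pathway, was lower in fasted livers. It measured 580, 690, 545 and 572 CPM in CD fed and 356, 261, 424 and 274 CPM in CD fast livers, with no overlap. On the HFD it measured 535, 501, 521 and 346 CPM in fed and 309, 415, 333 and 234 CPM in fasted livers, where the only overlap was that HFD fed replicate 4 lay below HFD fast replicate 2. The change was -0.86 ± 0.19 on the log2 scale in CD (adjusted p = 0.00413) and -0.56 ± 0.19 in HFD (adjusted p = 0.0742). Without HFD fed replicate 4 the HFD value was -0.69 (adjusted p = 0.031), without HFD fast replicate 2 it was -0.72 (0.0351), without both HFD replicates 4 it was -0.56 (0.0648), and DESeq2 called it (0.0313). The interaction was 0.30 ± 0.26 (adjusted p = 0.557).

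Cyp7b1 (chromosome 3, 18071950 to 18243338, minus strand), the oxysterol 7α-hydroxylase, had 200, 99.1, 278 and 284 CPM in CD fed livers and 124, 110, 89.4 and 145 CPM in CD fast livers. It had 185, 334, 138 and 72.4 CPM in HFD fed and 113, 98.4, 119 and 59.9 CPM in HFD fast livers. CD fed replicate 2 and HFD fed replicate 4 lay within the fasted range of their diet, and the other fed libraries lay above it. The fasting changes were -0.88 ± 0.39 in CD (adjusted p = 0.11) and -0.90 ± 0.39 in HFD (adjusted p = 0.159) on the log2 scale. Without CD fed replicate 2 the CD value was -1.12 (adjusted p = 0.0472), without HFD fed replicate 4 the HFD value was -1.17 (0.0472), and without both HFD replicates 4 the CD comparison gave -0.88 at an adjusted p of 0.0455 and the HFD comparison -0.99 at 0.105.

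Baat (chromosome 4, 49489422 to 49506557, minus strand), which conjugates bile acids, was measured at 262, 272, 299 and 274 CPM in CD fed and 261, 192, 231 and 222 CPM in CD fast livers. The HFD livers had 240, 223, 219 and 180 CPM fed and 155, 222, 165 and 190 CPM fasted. CD fed livers held the 4 highest values of all 16, and the differences were small, at -0.29 ± 0.12 on the log2 scale with fasting under CD (adjusted p = 0.0912), -0.24 ± 0.12 with fasting under HFD (0.238), -0.36 ± 0.12 with HFD among fed mice (0.0824) and -0.31 ± 0.12 with HFD among fasted mice (0.126). The last reached -0.41 (0.0457) without HFD fast replicate 2.

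Among the transporters, Abcb11 (chromosome 2, 69238282 to 69342616, minus strand) separated fed from fasted livers most clearly. This gene, whose promoter window held the IR1 matches printed above, had 1065, 986, 938 and 920 CPM in CD fed livers and 358, 186, 400 and 262 CPM in CD fast livers. HFD fed livers had 760, 572, 640 and 650 CPM and HFD fast livers 285, 320, 284 and 373 CPM. All fed libraries exceeded all fasted ones, and the HFD fed libraries lay between the CD fed and the fasted libraries without overlap. The fasting change was -1.70 ± 0.19 on the log2 scale in CD (adjusted p = 2.52e-05) and -1.05 ± 0.18 in HFD (adjusted p = 0.00357), and both calls held in every alternative fit. The smaller change in HFD was not called as an interaction (0.64 ± 0.26, unadjusted p = 0.0242, adjusted p = 0.177). With HFD among fed mice Abcb11 differed by -0.58 ± 0.18 (adjusted p = 0.0651, and 0.101 without both HFD replicates 4), and in fasted mice by 0.07 ± 0.18 (0.855). The difference in fed mice was called when only the 2 groups were fitted (0.0154), by DESeq2 (0.0231) and without CD fast replicate 2 (0.0168). An antisense gene, Gm13613, and a processed pseudogene, Gm13614, overlap Abcb11 on the opposite strand, and whether counting used strand was not given in the sources used here.

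Slco1a1 (chromosome 6, 141907282 to 141946962, minus strand), an organic anion carrier with male-biased expression in rodent liver, had 529, 424, 484 and 454 CPM in CD fed and 202, 118, 199 and 134 CPM in CD fast livers. On the HFD it had 481, 528, 374 and 218 CPM in fed and 146, 139, 175 and 41.0 CPM in fasted livers. Fed and fasted libraries did not overlap on either diet, and the lowest fed and the lowest fasted value were both of HFD replicate 4. The change was -1.53 ± 0.35 on the log2 scale in CD (adjusted p = 0.00546) and -1.68 ± 0.35 in HFD (0.0104), and without both HFD replicates 4 the latter was -1.59 (0.000985). Diet differences were -0.24 ± 0.34 in fed mice (0.734) and -0.38 ± 0.34 in fasted mice (0.517), and the interaction was -0.14 ± 0.49 (0.898). Slco1a1 belongs to a family of related genes, and whether reads were shared between them was not tested. Gm22036 lies within it on the same strand.

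Slc10a1 (chromosome 12, 80953183 to 80968705, minus strand), the sodium-dependent taurocholate uptake carrier, behaved unlike Slco1a1. In CD mice it had 466, 857, 788 and 690 CPM fed and 598, 743, 658 and 622 CPM fasted. In HFD mice it had 476, 594, 436 and 382 CPM fed and 680, 655, 644 and 341 CPM fasted. The fasting change was -0.10 on the log2 scale in CD (95% interval -0.55 to 0.36, adjusted p = 0.779) and 0.30 in HFD (-0.16 to 0.75, 0.406), and HFD fast replicate 4 lay far below the rest of its group. With HFD among fed mice Slc10a1 differed by -0.57 ± 0.21 (adjusted p = 0.119, and 0.108 without both HFD replicates 4), a value called without HFD fast replicate 4 alone (-0.57, 0.0487).

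Nr0b2 (chromosome 4, 133553376 to 133556536, plus strand) had the lowest CPM of the 10 genes in every group, and its CD fast libraries varied most (coefficient of variation 89.1%). CD fed livers had 48.2, 51.0, 49.8 and 28.8 CPM and CD fast livers 35.5, 5.11, 15.9 and 6.42 CPM. HFD fed livers had 15.0, 18.6, 20.1 and 4.48 CPM and HFD fast livers 15.0, 13.9, 17.9 and 10.1 CPM. The CD fed libraries exceeded all HFD libraries, and CD fast replicate 1 lay within the CD fed range. Fasting under CD changed Nr0b2 by -1.50 ± 0.51 on the log2 scale (adjusted p = 0.0436), the call that was lost in most fits without a library, reaching an adjusted p of 0.109 (-1.24) when CD fast replicate 4 was omitted and its smallest change, -1.21 (0.107), when CD fast replicate 2 was. In HFD the fasting change was -0.03 ± 0.51 (0.979), and the interaction was 1.47 ± 0.72 (unadjusted p = 0.0592, adjusted p = 0.267). HFD among fed mice gave -1.61 ± 0.52 (0.0682), and without both HFD replicates 4 it was -1.31 (0.124). This difference was called by DESeq2 (0.0422), by limma-voom (0.0358), with the replicate number as a block (0.0237) and when only the 2 groups were fitted (0.0399).

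Nr1h4 (chromosome 10, 89454234 to 89533585, minus strand), which encodes FXR itself, had nearly equal means in the 4 groups. Its group means were 141 ± 18.4 CPM in the fed and 135 ± 10.6 CPM in the fasted livers of CD mice, and 139 ± 8.43 and 138 ± 26.6 CPM in the same states of HFD mice (SD, n = 4). The 4 pairwise changes ranged from -0.06 to 0.03 on the log2 scale, and their 95% intervals together spanned -0.32 to 0.29. A change of the size seen with fasting in Abcb11 lies outside these intervals. These libraries measure the transcript only, and the amount and activity of FXR protein were not tested.

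With HFD among fed mice, 0 of the 10 genes changed by edgeR, against 7.5% of all genes (3.28% higher and 4.22% lower). Unadjusted p fell under 0.05 for 5 of them, against 22.9% of all genes. DESeq2 called 4 (Cyp8b1, Abcb11, Nr0b2 and Baat) against 10.8% of all genes, and limma-voom called 2 (Cyp8b1 and Nr0b2) against 7.28%, all lower with HFD. Libraries did not overlap for 5 of the 10 genes (these 4 and Cyp27a1), against 15.7% of all genes. The median change was -0.34 on the log2 scale, against 0.01 for all genes, and 9 of the 10 estimates were below 0, all but Cyp7a1 (with total count scaling Nr1h4 was also above 0, at 0.05). Without both HFD replicates 4 the estimates below 0 numbered 8, as Cyp7a1 was then at -0.10, Cyp7b1 at 0.03 and Nr1h4 at 0.02. With HFD among fasted mice only Cyp8b1 changed, 1 of 10 against 7.7% of all genes (3.05% higher and 4.65% lower), and it was the one gene without overlap, against 14% of all genes. The HFD comparisons in fed and fasted mice share no library with each other, but each shares 4 libraries with each of the fasting comparisons.

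For the diet by fasting interaction, which asks whether the fasting change differed between diets, edgeR called 0 of the 10 genes, and DESeq2 and limma-voom called none. Of all genes edgeR called 2.59%, 1.23% with a positive and 1.36% with a negative term, DESeq2 7.74% and limma-voom 2.37%. Abcb11 alone had an unadjusted p under 0.05, against 20.2% of all genes.

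The ratio of a pair of transcripts within a library was also described for 3 pairs, without a test. Cyp8b1 to Cyp7a1, in RPKM, averaged 8.29 ± 4.52 in fed and 29.5 ± 13.3 in fasted CD mice, and 4.06 ± 1.98 and 8.86 ± 6.50 in the same states of HFD mice (SD, n = 4). The CD fast libraries ranged from 15.4 to 46.9 and lay above all CD fed libraries, whose highest was 14.9, whereas the HFD groups overlapped. Abcb11 to Slc10a1, the exporter relative to an uptake carrier, averaged 0.636 ± 0.229 in fed and 0.201 ± 0.0724 in fasted CD mice, and 0.612 ± 0.140 and 0.261 ± 0.138 in the same states of HFD mice. In CD every fed library exceeded every fasted one, and in HFD only the fasted replicate 4, at 0.467, exceeded the lowest fed library, at 0.412. Cyp7b1 to Cyp7a1, the alternative relative to the classic hydroxylase, averaged 4.38 ± 3.30 fed and 3.09 ± 2.28 fasted in CD mice, and 2.92 ± 1.82 fed and 1.40 ± 0.868 fasted in HFD mice, and all 4 groups overlapped.

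**Figure D4:**
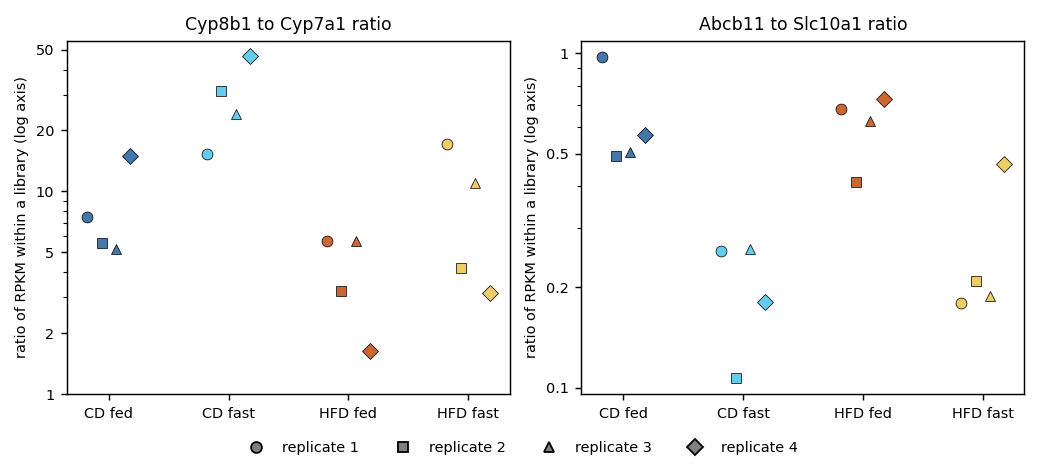
Ratio of RPKM of Cyp8b1 to Cyp7a1 (left) and of Abcb11 to Slc10a1 (right) within each library, on log axes, where each point is 1 library and its shape gives the replicate number. The CD fast libraries hold the highest Cyp8b1 to Cyp7a1 ratios on average (29.5), and the fasted groups hold the lowest Abcb11 to Slc10a1 ratios (0.201 and 0.261 on average).

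Other enzymes and cofactors of bile acid synthesis were taken from a list of 23 genes, of which 21 were tested. Fasting under CD changed 9 of them, 5 higher and 4 lower, with a list median of -0.03 on the log2 scale. The share called was 42.9% for fasting under CD, 9.52% for fasting under HFD, 19% for HFD among fed mice, 4.76% for HFD among fasted mice and 4.76% for the interaction, against 25.2%, 8.86%, 7.5%, 7.7% and 2.59% of all genes. Slc27a2, a very long chain acyl-CoA synthetase, rose by 1.07 ± 0.10 (adjusted p = 6.92e-06), the peroxisomal enzyme Hsd17b4 by 0.75 ± 0.11 (0.000289) and the peroxisomal thioesterase Acot8 by 1.13 ± 0.19 (0.000728). Cyp2c70, which makes the muricholic acids of rodents, fell by 4.52 ± 0.70 (0.00036), from 384 ± 106 CPM in CD fed to 16.8 ± 9.41 CPM in CD fast livers. Por and Amacr were the other risers, and Akr1c6, Akr1c14 and Fdx1 the other fallers. Fasting under HFD changed 2, the oxysterol hydroxylase Cyp39a1 by -1.24 ± 0.21 (0.00329) and Slc27a2 by 0.41 ± 0.10 (0.0179). HFD among fed mice changed 4, namely Por (1.30 ± 0.27), Cyp39a1 (0.91 ± 0.21), Slc27a2 (0.36 ± 0.10) and the ferredoxin reductase Fdxr (-0.37 ± 0.10), and HFD among fasted mice changed only Acox2 (0.36 ± 0.08). Slc27a2 was also the one gene of this list with an interaction, -0.65 ± 0.14 (adjusted p = 0.0245), its fasting rise being smaller in HFD. Ch25h reached at most 8 counts in a library and was not tested, and Stard1 was not matched in the table.

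Of 18 other transporter genes, 17 were tested. In the same order of comparisons 11.8%, 17.6%, 5.88%, 5.88% and 5.88% of them were called, against 25.2%, 8.86%, 7.5%, 7.7% and 2.59% of all genes, where a single gene is 5.88%. Fasting under CD raised Abcb4, the canalicular phospholipid floppase, by 1.01 ± 0.12 on the log2 scale (adjusted p = 4.95e-05), and Slc10a2, the apical bile acid carrier of cholangiocytes and ileum, fell by 2.07 ± 0.41 (0.00205), from 23.7 ± 9.93 to 5.63 ± 1.46 CPM. The canalicular exporter Abcc2 did not pass (0.09, adjusted p = 0.632). Fasting under HFD changed 3, all higher, the carrier Slco1a4 (1.87 ± 0.46, adjusted p = 0.0218), the basolateral exporter subunit Slc51b (1.67 ± 0.43, 0.0253) and the basolateral exporter Abcc3 (0.61 ± 0.18, 0.0459). The level of Slc51b was only 0.128 ± 0.0368 CPM in HFD fed and 0.411 ± 0.210 CPM in HFD fast livers, close to the floor, and its partner Slc51a had 0 counts in all libraries. Without both HFD replicates 4 only Slco1a4 was called with fasting under HFD (1.99, 0.0263), and Slc51b (1.45, 0.0825) and Abcc3 (0.59, 0.0663) were not. HFD among fed mice changed Abcb4 (0.49 ± 0.12) and HFD among fasted mice Abcb1a (1.24 ± 0.31), a call lost without both HFD replicates 4 (1.07, adjusted p = 0.0622). Abcb4 had an interaction of -0.82 ± 0.17 (adjusted p = 0.0225), which without both was -0.83 (0.0507).

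**Figure D5:**
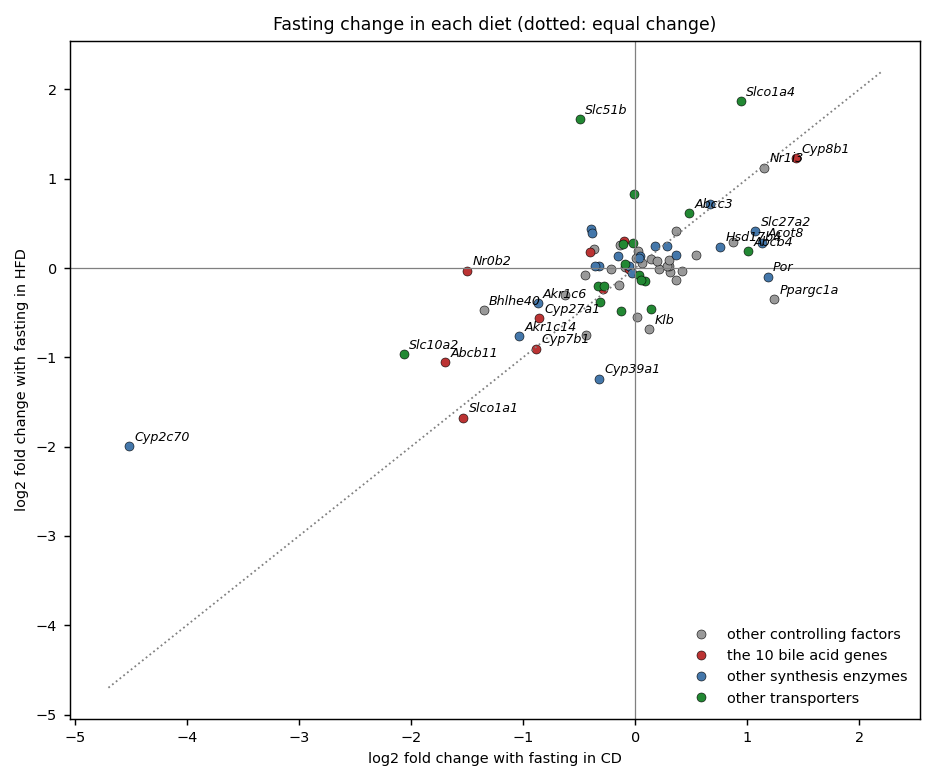
Log2 fold change with fasting under CD (horizontal axis) and in HFD (vertical axis) of the 10 genes and the tested genes of the 3 companion lists, 1 point per gene, with a dotted line where both are equal. Cyp8b1 and Slco1a1 lie close to the line, and Abcb11 (-1.70 and -1.05) and Cyp2c70 (-4.52 in CD) lie above it.

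Of 31 factors that control the pathway, 28 were tested. Fasting under CD changed 14.3% of them and fasting under HFD 10.7%, and HFD changed 3.57% among fed and 10.7% among fasted mice, against 25.2%, 8.86%, 7.5% and 7.7% of all genes. With fasting under CD the clock repressor Bhlhe40 fell by 1.35 ± 0.28 on the log2 scale (adjusted p = 0.00314), and the nuclear receptor CAR (Nr1i3) rose by 1.15 ± 0.34 (0.0215), LXRβ (Nr1h2) by 0.31 ± 0.10 (0.0264) and the coactivator Ppargc1a by 1.24 ± 0.39 (0.0287). With fasting under HFD Klb, the coreceptor of FGFR4 for the intestinal signal FGF15, fell by 0.69 ± 0.09 (0.00069), Hnf4a fell by 0.55 ± 0.10 (0.00601), and Nr1i3 rose by 1.12 ± 0.34 (0.0498). Klb was at 43.8 ± 1.99 CPM in HFD fed and 27.2 ± 2.41 CPM in HFD fast livers, but at 44.6 ± 2.92 and 48.7 ± 6.87 CPM in CD fed and CD fast livers, and its interaction was -0.81 ± 0.13 (0.00838). HFD among fasted mice lowered Klb (-0.84 ± 0.09, 0.000882), the clock factor Nfil3 (-1.14 ± 0.28, 0.0219) and Nr1h2 (-0.34 ± 0.10, 0.0415). Without both HFD replicates 4 only the Klb call of these 3 was kept (-0.81, 0.00599), with Nfil3 at -1.01 (0.0672) and Nr1h2 at -0.32 (0.101). Fgfr4 itself and Nr5a2 (LRH-1) passed in no comparison. Fgf15, an ileal gene, and Malrd1 had at most 1 count in a library and Gpbar1 at most 3, and these were not tested.

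Because Slco1a1 and Cyp7b1 are male-biased in mouse liver, lists of other sex-biased genes were set beside them. Of 14 male-biased genes, fasting lowered 5 in CD and 5 in HFD and raised none, HFD lowered 1 in fed mice and 2 in fasted mice, and 0 had an interaction, against 2.59% of all genes (1 at an unadjusted p under 0.05 by edgeR, against 20.2%). These lowered genes are 35.7%, 35.7%, 7.14% and 14.3% of the list, where 11.5%, 4.07%, 4.22% and 4.65% of all genes were lower in these comparisons. Mup21 went the other way with HFD among fed mice (131 ± 61.1 CPM in CD fed and 358 ± 222 CPM in HFD fed livers, 1.45 ± 0.56, adjusted p = 0.127), and without both HFD replicates 4 it was called higher (1.80, 0.00358). It belongs to a family of near-identical genes, so its counts are uncertain. Hsd3b5 fell by 5.43 ± 0.97 on the log2 scale in CD (adjusted p = 0.00105) and by 3.45 ± 0.88 in HFD (0.0259), Selenbp2 by 3.92 ± 0.78 (0.00226) and 2.76 ± 0.75 (0.0329), Gstp1 by 0.80 ± 0.20 (0.0098) and 1.52 ± 0.21 (0.00069), and Elovl3 by 1.77 ± 0.37 in CD (0.00288). Nox4 fell by 0.84 ± 0.22 in HFD (0.0271), Cyp4a12b by 1.23 ± 0.34 with HFD among fed mice (0.0395) and by 1.37 ± 0.34 with HFD among fasted mice (0.0251), and Gstp1 by 0.91 ± 0.20 with HFD among fasted mice (0.0154). Cyp4a12b also belongs to a family of related genes, and whether reads were shared between them was not tested. Of 15 female-biased genes 8 were tested. HFD raised 3 in fed mice (Cyp2b9, Cyp2a4 and Cyp2b13) and 4 in fasted mice (these and Hao2), where Cux2 fell, and fasting raised Acot3 and Cux2 in CD. Cux2 varied widely in CD fast livers, from 0.354 to 9.81 CPM. That range overlapped those of CD fed (0.221 to 0.446 CPM) and HFD fast livers (0.162 to 0.629 CPM). The share called was 37.5% and 62.5% for the HFD comparisons and 25% and 0% for fasting under CD and HFD, against 7.5%, 7.7%, 25.2% and 8.86% of all genes. In CD fed and CD fast livers Cyp2b13 averaged only 0.041 and 0.036 CPM, Cyp2a4 0.20 and 0.11 CPM, and Hao2 0.26 and 0.060 CPM. These genes passed the filter on low counts through the HFD libraries, where they were higher. The filter therefore partly set the HFD counts and shares of this list, and no result is drawn from them. Cyp2b9 had 0.0729 to 1.06 CPM in CD fed and 12.7 to 162 CPM in HFD fed livers. The part of sex-biased expression in the Slco1a1 and Cyp7b1 results was not tested.

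Markers of other liver cells moved in the same comparison as the CD fasting calls, where 11.5% of all genes were lower. Of 10 Kupffer cell genes 5 were lower with fasting under CD (50%), and their summed level was 344 to 647 CPM in CD fed and 233 to 377 CPM in CD fast livers. Of 9 endothelial genes 5 (55.6%) were lower (405 to 462 CPM against 297 to 369 CPM), and of 9 stellate cell genes 2 (22.2%) were lower (320 to 412 CPM against 205 to 323 CPM), with no marker of these 3 lists at 0. With fasting under HFD none of the genes of these 3 lists was called by edgeR, against 8.86% of all genes, and 1 had an unadjusted p under 0.05, against 25.6%. Of 8 hepatocyte genes fasting lowered 1 under CD (109116 to 141466 CPM summed in fed against 92929 to 113589 CPM in fasted livers) and 2 under HFD, Hnf4a and Tat, or 12.5% and 25% of the list. The Tat call was lost without both HFD replicates 4 (-1.39, adjusted p = 0.0943), while Serpina1c was then called lower (-0.55, 0.0272). Under HFD all 8 hepatocyte estimates were below 0, with a median of -0.56 on the log2 scale (without both HFD replicates 4 Apoa1 was at 0.06), and the summed levels of fed (112980 to 142904 CPM) and fasted livers (74010 to 105323 CPM) did not overlap. Of 12 pericentral hepatocyte genes fasting under CD raised 3 and lowered 2, or 41.7% called against 25.2% of all genes, with a summed level of 6191 to 9848 CPM in CD fed and 13419 to 15783 CPM in CD fast livers. The median change of this list was only 0.01 on the log2 scale, with 7 of 12 estimates above 0, so the sums do not stand for each gene. In HFD the pericentral sums were 6152 to 11817 CPM fed and 9256 to 18752 CPM fasted. Of 10 periportal hepatocyte genes fasting called 20% under CD and 10% under HFD, and their sums were 4335 to 4829 CPM fed and 4207 to 4726 CPM fasted under CD, and 3272 to 5067 CPM fed and 2837 to 4192 CPM fasted under HFD, the 5067 CPM being HFD fed replicate 4. Some of these markers also differed with HFD among fasted mice, the comparison of the Cyp8b1, Klb, Nfil3 and Nr1h2 diet calls, where 7.7% of all genes were called. There 3 of 9 endothelial and 1 of 9 stellate genes were higher, 1 of 8 hepatocyte, 1 of 12 pericentral and 1 of 10 periportal genes were lower, and 0 Kupffer cell genes were called. Estimates were above 0 for 9 of 10 Kupffer, 9 of 9 endothelial and 9 of 9 stellate genes (medians 0.50, 0.34 and 0.50 on the log2 scale). Unadjusted p by edgeR fell under 0.05 for 6, 6 and 5 of these, against 25.9% of all genes. For hepatocyte, pericentral and periportal genes 1 of 8, 9 of 12 and 3 of 10 estimates were above 0. Without both HFD replicates 4 the calls became 2 endothelial genes higher, 1 hepatocyte and 4 periportal genes lower and 0 in the stellate, pericentral and Kupffer lists, against 4.27% of all genes. The sums of CD fast and HFD fast livers did not overlap for the periportal genes (as given above) or the stellate genes (205 to 323 CPM against 341 to 480 CPM), and overlapped for the endothelial genes (297 to 369 CPM against 358 to 462 CPM). Without both HFD replicates 4, HFD among fed mice raised 2 and lowered 1 of 12 pericentral genes, and lowered 1 of 10 periportal genes. None of the hepatocyte, Kupffer cell, endothelial and stellate genes was called in that comparison, where this fit called 7.27% of all genes. Genes listed as markers of other tissues were mostly too low to test, and the sums given here rest on few of them. Whether hepatocytes themselves expressed the tested ones was not tested, so a higher sum is not a measure of another tissue. Of 6 adipose genes 2 were tested, of which fasting raised 1 under CD (Cidec) and 2 under HFD (Cidec and Cfd). Of 7 intestinal genes 3 were tested, of which fasting under CD raised 2 and lowered 1 (Slc10a2), and fasting under HFD raised 1 (Fabp2, 0.46, adjusted p = 0.0483, and 0.54 at 0.0622 without both HFD replicates 4). In the fit without both, Apoa4 was called higher with fasting under HFD instead (3.16, adjusted p = 0.00845). Of 9 pancreatic genes 2 were tested, of which fasting lowered 2 under CD (Cela1 and Cela2a) and 1 under HFD (Cela1). The sum of 6 adipose genes was 6.92 to 24.5 CPM fed and 78.9 to 267 CPM fasted under CD, and 11.1 to 63.7 CPM fed and 152 to 189 CPM fasted under HFD, and Adipoq, Plin1, Lep and Retn reached at most 45 counts in a library. The sum of 7 intestinal genes was 389 to 957 CPM fed and 2102 to 11110 CPM fasted under CD, with Apoa4 and Fabp2 higher, and 246 to 1656 CPM fed and 1424 to 4380 CPM fasted under HFD, while Fgf15 and Fabp6 had at most 1 count. The sum of 9 pancreatic genes was 14.4 to 23.5 CPM fed and 6.19 to 12.2 CPM fasted under CD, and 10.8 to 19.2 CPM fed and 6.30 to 9.20 CPM fasted under HFD. The part of cell makeup, tissue admixture or zonation in the results of the 10 genes was not tested.

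The genes whose log2 CPM followed each of the 10 genes most closely over the 16 libraries were listed as a description, in which the 4 groups contribute to the likeness. The closest were Bdh2 for Abcb11 (Pearson r = 0.97), Nmt1 for Cyp8b1 (0.963), Ttr for Cyp27a1 (0.963), Ganab for Slco1a1 (0.942), Ugt2b1 for Baat (0.929), Gm10319 for Nr0b2 (0.905), Fkbp8 for Slc10a1 (0.873), Ces4a for Cyp7b1 (0.862), Mccc2 for Nr1h4 (0.837) and Cep128 for Cyp7a1 (0.799). The genes that followed next were Gm2a and Zfp280b for Abcb11 (0.966 and 0.96), Psmd3 and Smco4 for Cyp8b1 (0.961 and 0.96), Il1rap and Cdc42ep4 for Cyp27a1 (0.956 and 0.955) and Dbi and Cfhr2 for Slco1a1 (0.942 and 0.938). For the other genes they were Tuba4a and Ces2a for Baat (0.925 and 0.906), Sltm and Fip1l1 for Nr0b2 (0.888 and 0.873), Pla2g16 and Macrod1 for Slc10a1 (0.871 and 0.868), Prpsap2 and Fbxo22 for Cyp7b1 (0.837 and 0.836), Akr1a1 for Nr1h4 (0.797) and Tctex1d2 and Trmt61a for Cyp7a1 (0.799 and 0.748). Cyp7a1 had the lowest likeness to any gene, and no gene of the synthesis, transport and control lists was among the 3 closest of any of the 10.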

How the data were processed

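RNA-seq counts of 16 mouse livers were used. The counts deposited by the authors are whole, unnormalized numbers per Ensembl gene in 1 table. The authors selected polyadenylated RNA with an integrity number over 8, prepared libraries with NEBNext Ultra II, sequenced 100 base paired ends on an Illumina HiSeq, aligned them with TopHat2 2.0.11 (first-strand mode) to GRCm38 and counted genes with featureCounts. The submitters' processing notes also name CASAVA 1.8.4. The strand setting of the counting was not given in the sources used here, so overlapping genes are uncertain.

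Groups and replicate numbers came from the sample labels. Of 46078 genes 45143 were matched to a symbol, and positions and exon lengths came from GENCODE M21. The analysis used edgeR 4.0.16 under R 4.3.3: filterByExpr, TMM, 1 coefficient per group over 16 libraries (12 residual degrees of freedom) and quasi-likelihood tests with Benjamini-Hochberg adjustment and a threshold of 0.05. Where no other test is given, adjusted p belong to this fit. SE is the absolute log2 change divided by the square root of F. CPM are TMM-scaled, log2 CPM used a prior count of 2, and RPKM divides CPM by union exon length. Floors cover counting error only, as reads carry no molecular identifiers. The study describes 4 livers per group, and the p-values set a difference between groups against the spread between samples within groups, estimated in 1 fit over 16 libraries. Library pairs of a group all differed by more than sampling noise (lowest chi-square per gene 37.5).

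The genes named were all 10 members, for each companion list (synthesis, transport, control, male-biased, female-biased) up to 4 genes per comparison with the smallest adjusted p under 0.05, and the 3 genes most like each member. Genes named beyond these ranks (Por, Amacr, Akr1c6, Akr1c14, Fdx1, Abcc2, Fgfr4, Nr5a2, Mup21), marker genes and genes not tested were chosen after their values were seen. The results of 2 genes that these rules would name are not reported here, although totals over a list include them. The members and lists were chosen with earlier results of these data known. Alternatives were DESeq2 1.42.0, limma-voom (limma 3.58.1), other scalings and filters, fits of 2 groups, a replicate block and the omission of libraries.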

Additional observations from a re-analysis of the deposited data

Results flagged for a closer look

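Within groups of 4 libraries, 40 sets of CPM values (10 genes in 4 groups) were examined for a library far from the rest, and 2 were found, where chance gives about 1 in 20. Slc10a1 in HFD fast replicate 4 was 341 CPM, with a gap to the next library of 0.893 of the group's range. Nr0b2 in CD fed replicate 4 was 28.8 CPM, with a gap of 0.876 of the range. HFD fast replicate 4 is also 1 of the 2 libraries at the edge of their groups for 9 of the 10 genes.

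The fasting change differed between diets, by the interaction test of edgeR, for 4 genes of the companion lists (21 synthesis, 17 transport, 28 control, 14 male-biased and 8 female-biased genes tested) and for 0 of the 10 bile acid genes, against 2.59% of all genes. The interaction was -0.65 on the log2 scale for Slc27a2, -0.82 for Abcb4, -0.81 for Klb and -3.07 for the female-biased gene Acot3. Without both HFD replicates 4 the calls of Slc27a2 (-0.62, adjusted p = 0.043) and Klb (-0.80, 0.0235) were kept, and those of Abcb4 (-0.83, 0.0507) and Acot3 (-2.81, 0.0862) were lost. Acot3 had 13.5 ± 6.96 CPM fed and 192 ± 79.2 CPM fasted in CD mice, against 44.5 ± 32.5 and 75.8 ± 37.5 CPM in HFD mice (SD, n = 4).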

How the results depend on the processing

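Of 1290 values of single genes under alternative fits, 1183 kept their direction and their side of the threshold, 29 gained a call, 17 lost one and 61 changed sign with no call in either fit. The calls of Cyp8b1, Abcb11 and Slco1a1 with fasting in both diets, and of Cyp27a1 with fasting under CD, held under every alternative run. DESeq2 called 12.1%, 10.8%, 12.5% and 7.74% of all genes with fasting under HFD, HFD among fed mice, HFD among fasted mice and the interaction, and 4 of the 10 genes with HFD among fed mice. Of the synthesis list it called 4 with fasting under HFD, 10 with HFD among fed mice, 2 with HFD among fasted mice and 5 for the interaction. Of the transport list it called 3 with HFD among fed mice and 2 with HFD among fasted mice, and of the control list 3, 5 and 3 with HFD among fed mice, HFD among fasted mice and the interaction. Fits of only the 2 groups compared called 3 of the 10 genes with HFD among fed mice and 0 with HFD among fasted mice. For fasting under HFD, HFD among fed mice and HFD among fasted mice they called 1, 7 and 0 synthesis genes and 1, 3 and 0 transport genes, and for the HFD comparisons 3 and 1 control genes, against 6.95%, 7.66% and 0.623% of all genes. With at least 1 CPM in 4 libraries, HFD among fed mice gave 1 of the 10 genes, 7 synthesis and 2 transport genes, and the interaction 2 control genes, against 9.12% and 3.98% of all genes. Without a filter HFD among fed mice gave 1 of the 10 genes (3.7% of all), and with limma-voom 2 of them and 2 control genes (7.28%). Total count scaling gave 3 transport and 4 control genes with HFD among fed mice (8.82% of all genes), upper quartile scaling 2 transport genes there (7.67%) and 2 control genes for the interaction (2.57%), and DESeq2 size factors 2 control genes for the interaction (2.7%). The cause of these differences was not tested.

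The replicate numbers do not pair the libraries: of 24 same-numbered pairs 8 had a correlation of deviations over 0.1 (range -0.243 to 0.662), and 5 of 16 libraries correlated best with their own number. With the replicate number as a block, 2 of the 10 genes were called with HFD among fed mice (Cyp8b1 0.0492 and Nr0b2 0.0237, adjusted p) and 2 synthesis genes with HFD among fasted mice, against 8.01% and 8.56% of all genes, and Cyp27a1 was called with fasting under HFD (0.0444).

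Leaving out both HFD replicates 4 was chosen after seeing the data. The 10 genes then gave 6 calls with fasting under CD, against 27.3% of all genes (4128 calls), 3 with fasting under HFD, against 6.82% (1030 calls), and 0 in the other comparisons. The transport list gave 1 with fasting under HFD, 3 with HFD among fed mice and 0 with HFD among fasted mice and the interaction, the synthesis list 7 with HFD among fed mice and 2 for the interaction, and the control list 1 with HFD among fasted mice, where this fit called 7.27% (HFD among fed mice), 4.27% (HFD among fasted mice) and 1.5% (interaction) of all genes.

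Over all genes, calls with HFD among fasted mice went from 1161 to 90 (only the 2 groups), 2099 (total counts), 1952 (DESeq2) and 645 (without both HFD replicates 4). Calls with HFD among fed mice went from 1131 to 1734 (DESeq2), and interactions from 390 to 1054 (DESeq2) and 226 (without both HFD replicates 4).

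Leaving out each library in turn gave 4 to 5, 3 to 5, 0 to 3, 0 to 2 and 0 to 0 calls among the 10 genes for fasting under CD, fasting under HFD, HFD among fed mice, HFD among fasted mice and the interaction, where the same fits called 18.7% to 26%, 3.31% to 10%, 3.37% to 8.29%, 3.51% to 8.9% and 0.963% to 3.01% of all genes. In the same order the synthesis list gave 7 to 10, 1 to 4, 1 to 7, 1 to 2 and 0 to 2, the transport list 2 to 4, 0 to 4, 0 to 3, 0 to 2 and 0 to 2, and the control list 2 to 7, 2 to 4, 0 to 3, 1 to 4 and 1 to 2. At these depths the lowest level of any of the 10 genes, 4.48 CPM for Nr0b2, lies well above the floor.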

Other observations

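CD fed replicate 1 and the HFD replicates 4 had the lowest summed pericentral levels of their groups, 6191, 6152 and 9256 CPM. CD fed replicate 1 and HFD fed replicate 4 also had the highest summed periportal levels of their groups, 4829 and 5067 CPM, and HFD fast replicate 4, at 4151 CPM, was second to HFD fast replicate 2 at 4192 CPM. The deviations of CD fed replicate 1 from its group mean correlated at 0.386 with those of HFD fed replicate 4 and at 0.364 with those of HFD fast replicate 4, over genes. These values are given without an explanation.

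Cyp2c70 fell further with fasting under CD than any of the 10 genes. On the HFD its level was 107 ± 23.5 CPM in fed and 26.8 ± 28.0 CPM in fasted livers (SD, n = 4), against 384 ± 106 CPM in CD fed livers. Neither the change with fasting under HFD (-2.00 on the log2 scale, adjusted p = 0.0596 by edgeR) nor that with HFD among fed mice (-1.84, 0.0834) passed.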
